A study of Mus musculus with 5 samples.

Results

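The genes described here encode fibrillar collagens of fibrous connective tissue: Col1a1 and Col1a2 (the chains of type I collagen), Col3a1 (type III), Col5a1, Col5a2 and Col5a3 (type V) and Col11a1 (a chain of type XI). These 7 genes were chosen by name, as the fibrillar collagen genes of fibrous tissue, out of 31055 genes counted in each library, and all 7 were detected in every library. The cells were sorted as GFP+ from hindlimb muscle around the tibia of Prx1Cre;mTmG mice on a C57Bl/6 background, males or females of 10 to 14 weeks, and were profiled by droplet single-cell RNA sequencing. In these mice Prx1 regulatory sequence drives Cre in limb mesenchyme, and recombined cells and all their descendants carry membrane GFP in place of tdTomato, so GFP marks a lineage and not a present cell type. The study compared 5 conditions with 1 library each: uninjured muscle (d0), muscle at d3 and d5 after a non-stabilized tibial fracture (post-fracture), and muscle at d3 and d5 after a fracture with mechanical injury of the surrounding muscle (post-polytrauma). Each library pooled cells from 2 mice, and periosteum and bone marrow were excluded at dissection. With 1 library per condition no difference between conditions can be tested, and every comparison below is between libraries.

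Fibrillar collagens are secreted as procollagens in which repeated glycine-X-Y triplets wind the chains into a long helix. Type I collagen forms the bulk of fibrils in tendon, fascia and bone, type III is co-deposited with it in soft and healing tissue, and types V and XI are minor components that start fibrils and limit their diameter. In muscle, the interstitial fibroblasts that are also called fibro-adipogenic progenitors (FAP) or mesenchymal progenitors (MP) make most of this matrix, tenocytes make the aligned type I fibrils of tendon, and cartilage cells use type XI with type II collagen.

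The names of 2 libraries appear to be exchanged in the deposit. The study's source data list as many d5 post-fracture cells as there are barcodes in the library labelled d3 post-polytrauma, which has 2001. There are 6915 barcodes under the label d5 post-fracture. The library labelled d3 post-polytrauma is therefore called d5 post-fracture here, and the one with the d5 post-fracture label is called d3 post-polytrauma. Counts of genes past the fold limit are also given under the deposited labels. The depth differed widely: 1468 to 11941 cells per library passed the filters, with a median of 3640 unique molecular identifiers (UMIs) per cell at d0 and 15688 to 34949 after injury. The d0 and both d3 libraries shared 405 to 525 cell barcodes with each other, the d5 libraries shared 944, and a d5 library shared at most 3 with any other. Day and barcode set therefore cannot be told apart between d3 and d5. What the sharing reflects was not tested. EGFP, the transcript of the sorted marker, stood at 1805 to 2821 CPM (UMIs scaled to library size) and Prrx1 at 124 to 275 CPM. Pax7, a muscle stem cell marker, and tdTomato were each at no more than 0.0194 CPM. No library of GFP-negative cells shows that tdTomato can be counted here, so its low level does not check the sort. The 7 hematopoietic markers ranged from 0.190 CPM (Ptprc, d3 post-fracture) to 32.9 CPM (Lyz2, d3 post-polytrauma), and 5 of them were highest at d3 post-polytrauma.

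The repeat that defines these chains can be read in their coding sequences. In the GENCODE M21 coding sequences (GRCm38), the longest uninterrupted run of codon triplets that start with a glycine codon (GGN) held 337 to 344 triplets in all 7 genes and took 55.2% of the codons of Col5a1 and 74.2% of those of Col1a2. The first 63 bases of this run are shown for each gene, to compare the chains, with the glycine codon that opens each triplet in capitals.
Col1a1: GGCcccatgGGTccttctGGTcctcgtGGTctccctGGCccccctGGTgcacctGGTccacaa
Col1a2: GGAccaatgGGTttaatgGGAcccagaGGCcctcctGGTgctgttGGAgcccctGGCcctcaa
Col3a1: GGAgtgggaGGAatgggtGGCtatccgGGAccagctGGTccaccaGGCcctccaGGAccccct
Col5a1: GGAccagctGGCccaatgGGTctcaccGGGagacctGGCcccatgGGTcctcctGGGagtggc
Col5a2: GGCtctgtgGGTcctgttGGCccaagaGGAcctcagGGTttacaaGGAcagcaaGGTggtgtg
Col5a3: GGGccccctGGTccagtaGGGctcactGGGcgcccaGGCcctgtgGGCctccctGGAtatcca
Col11a1: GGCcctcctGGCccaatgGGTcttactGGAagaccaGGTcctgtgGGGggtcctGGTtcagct
Triplets with proline codons at both X and Y were least frequent in Col1a2, at 6.19% of its run, and made 8.85% to 13.3% of the run in the other 6 genes.

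The genes lie on 6 chromosomes (GRCm38 coordinates, GENCODE M21). Col3a1 (chr1:45311538-45349706, plus strand) and Col5a2 (chr1:45374321-45503282, minus strand) are neighbours on chromosome 1. Col1a1 is at chr11:94936224-94953042 (plus) with 51 exons, and Col1a2 at chr6:4504814-4541544 (plus) with 52 exons. Col5a1 is at chr2:27886425-28039514 (plus) with 66 exons, Col5a3 at chr9:20770050-20815067 (minus) with 67 exons, and Col11a1 at chr3:114030540-114220718 (plus) with 67 exons. Another annotated gene overlaps Col1a2, Col3a1 and Col5a2 on the same strand (Gm43921, Gm47302 and Gm38211), so reads in those overlaps could be lost to the counts.

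Proximal promoters were looked up in the RefSeq table (GRCm38.p6, 250 bases before to 50 after the start), which matched 5 of the 7 genes. They are shown for Col1a2, one of the most abundant transcripts, and for Col5a3 and Col11a1, the pair whose levels departed from the others below. Capitals mark the motif CCAAT on either strand (CCAAT or ATTGG).
Col1a2 (chr6:4505368-4505667, plus): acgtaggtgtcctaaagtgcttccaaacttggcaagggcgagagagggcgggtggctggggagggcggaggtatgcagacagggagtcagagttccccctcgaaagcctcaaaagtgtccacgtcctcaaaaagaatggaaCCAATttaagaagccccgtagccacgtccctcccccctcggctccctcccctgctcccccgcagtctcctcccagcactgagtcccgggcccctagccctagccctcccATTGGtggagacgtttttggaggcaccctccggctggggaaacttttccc
Col5a3 (chr9:20815018-20815317, minus): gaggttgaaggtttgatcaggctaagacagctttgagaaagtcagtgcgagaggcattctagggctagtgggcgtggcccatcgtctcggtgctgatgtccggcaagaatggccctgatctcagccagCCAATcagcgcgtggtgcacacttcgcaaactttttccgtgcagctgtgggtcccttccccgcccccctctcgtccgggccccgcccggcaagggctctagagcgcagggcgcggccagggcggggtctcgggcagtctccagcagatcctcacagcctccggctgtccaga
Col11a1 (chr3:114030290-114030589, plus): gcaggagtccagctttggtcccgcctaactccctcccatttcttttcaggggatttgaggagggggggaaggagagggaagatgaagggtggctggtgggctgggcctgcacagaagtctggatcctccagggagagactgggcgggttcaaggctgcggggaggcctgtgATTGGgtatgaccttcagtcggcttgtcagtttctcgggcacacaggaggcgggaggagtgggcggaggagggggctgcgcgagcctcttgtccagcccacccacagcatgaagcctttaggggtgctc
CCAAT occurred 2 times in the Col1a2 window, once each in the other windows shown, and not in the matched windows of Col3a1 and Col5a1. Of 32851 promoter windows of this length 37.4% held it, so the match does not set these genes apart. TATAAA, found in 13.6% of all windows, was absent from the windows shown and present in that of Col3a1.

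Fibrillar collagen transcripts were among the most abundant of these cells, and more so at d5. The 7 genes together made 1.20% of all UMIs at d0, 1.59% at d3 post-fracture, 0.975% at d3 post-polytrauma, 5.49% at d5 post-fracture and 3.00% at d5 post-polytrauma. At d5 post-fracture, Col1a1, Col1a2 and Col3a1 ranked 2, 3 and 4 among all genes by UMIs. At d3 post-polytrauma the same genes ranked 89, 83 and 85. Levels are given as CPM of the summed UMIs of a library, and since a 3' UMI counts 1 mRNA whatever its length, no scaling by gene length was applied. The counting intervals (95%, exact Poisson) were narrow, cover counting error only and say nothing about variation between mice.

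**Figure D1:**
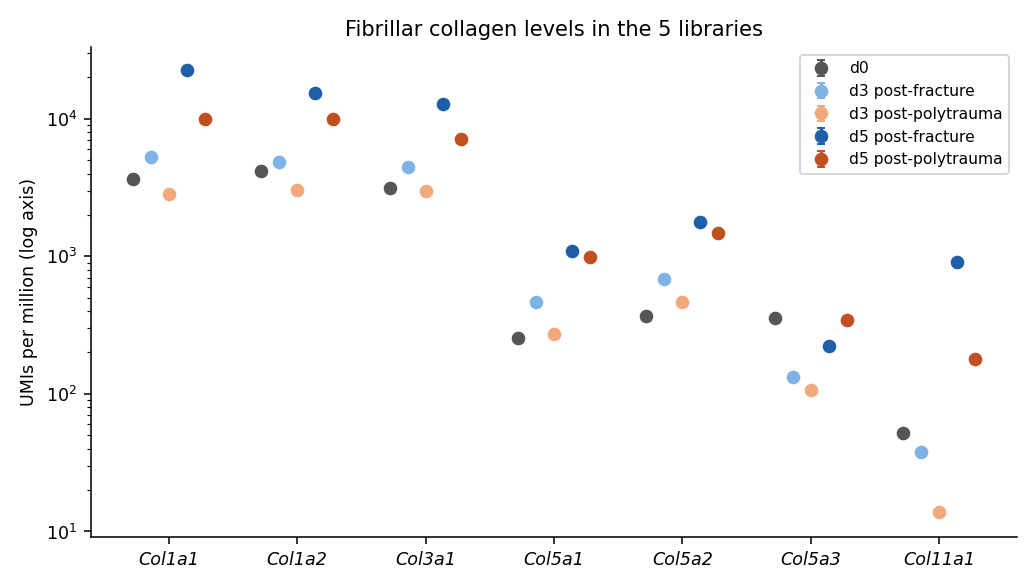
Level of each of the 7 genes (CPM, log axis) in the 5 libraries, with exact Poisson 95% intervals that are mostly smaller than the points. For Col1a1, Col1a2, Col3a1, Col5a1, Col5a2 and Col11a1 both d5 libraries lie above the other libraries, whereas the highest Col5a3 level, 359 CPM, is that of d0.

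By summed CPM, type I collagen transcripts were the most abundant of the family, and at d3 post-polytrauma Col3a1 lay between Col1a2 and Col1a1. This order depended on the weight of deep cells. With each cell thinned to 2000 UMIs, Col3a1 had a higher mean than Col1a1 and Col1a2 at d3 post-polytrauma. As the median over cells, Col3a1 lay above both type I genes at d0. Col1a1 was at 3670 CPM at d0, 5316 at d3 post-fracture, 2847 at d3 post-polytrauma, 22711 at d5 post-fracture and 9923 at d5 post-polytrauma. Col1a2 was at 4148, 4812, 3046, 15308 and 9974 CPM in the same order. By summed CPM both genes were lowest at d3 post-polytrauma and highest at d5 post-fracture, and the d3 and d5 libraries did not overlap. As the median over cells, d0 lay below d3 post-polytrauma for Col1a1 (1384 against 2483 CPM) and Col1a2 (1931 against 2855 CPM). It also lay below without cells with tenocyte markers (2256 against 2843 CPM and 2773 against 3042 CPM). With each cell thinned to 2000 UMIs, the mean was lower at d0 for Col1a1 (6.17 against 6.72 UMIs) but not for Col1a2 (7.16 against 6.94). Col3a1 was at 3116 CPM at d0, 4442 at d3 post-fracture, 3001 at d3 post-polytrauma, 12873 at d5 post-fracture and 7114 at d5 post-polytrauma, the same order of libraries as for Col1a1.

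Type V collagen genes were about an order of magnitude less abundant. Col5a1 was at 256 CPM at d0, 467 at d3 post-fracture, 272 at d3 post-polytrauma, 1094 at d5 post-fracture and 991 at d5 post-polytrauma. Col5a2 was at 370, 686, 464, 1784 and 1468 CPM in that order. Both were lowest in uninjured muscle, and their d5 levels lay close to each other. Col5a3, which encodes a chain found in a more restricted set of tissues, had another pattern: 359 CPM at d0, 133 at d3 post-fracture, 106 at d3 post-polytrauma, 224 at d5 post-fracture and 347 at d5 post-polytrauma. Its d0 level and its d5 post-polytrauma level were the highest, and both d3 libraries the lowest.

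Col11a1 was the least abundant of the 7 genes in 4 of the 5 libraries and had the widest range between libraries. It was at 51.6 CPM at d0, 37.9 at d3 post-fracture, 13.9 at d3 post-polytrauma, 913 at d5 post-fracture and 179 at d5 post-polytrauma. At d5 post-fracture it lay above Col5a3. Its rank among all genes moved from 5250 at d3 post-polytrauma to 167 at d5 post-fracture.

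The first comparison asked how collagen transcripts differed between uninjured muscle and muscle at d3 after fracture. Col5a1 was 1.82-fold and Col5a2 1.85-fold higher at d3 post-fracture than at d0, whereas Col5a3 was 2.68-fold lower. Col1a1 was 1.45-fold, Col1a2 1.16-fold and Col3a1 1.43-fold higher, and Col11a1 was 1.35-fold lower (log2 ratio -0.43, interval -0.54 to -0.33). By the limit used here, at least 2-fold on the log2(CPM + 1) scale, 0 of the 7 genes were higher and 1, Col5a3 (log2 ratio -1.42, interval -1.47 to -1.38), was lower. Over the 9388 genes with a mean of at least 5 CPM, 11.5% were at least 2-fold higher and 23.2% at least 2-fold lower. The median log2 ratio was 0.51 over the 7 genes and -0.25 over all tested genes. With median-of-ratios scaling, which brings the median of all genes to 0.01, 2 of the 7 genes (Col5a1 and Col5a2) passed the limit upward against 17% of all genes, and Col5a3 passed it downward against 16.8%.

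The difference in Col1a1 and Col11a1 between d0 and d3 post-fracture changed with a small group of uninjured cells. At d0, 248 cells (6.38% of those thinned to 2000 UMIs) carried at least 2 of the tenocyte markers Scx, Tnmd and Kera, against 44 cells (0.820%) at d3 post-fracture. These 248 cells held 43.0% of the Col1a1 UMIs, 38.0% of the Col1a2 UMIs and 60.3% of the Col11a1 UMIs of the d0 library, but 1.91% of its Col3a1 UMIs. Without such cells in either library, the log2 ratio of d3 post-fracture to d0 was 1.23 for Col1a1, 0.79 for Col1a2 and 0.70 for Col11a1, so that Col11a1 changed direction. Among cells with FAP/MP markers it was 1.38 for Col1a1, 1.01 for Col11a1 and -1.83 for Col5a3.

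From d3 to d5 after fracture, 6 genes were at least 2-fold higher at d5 post-fracture than at d3 post-fracture: Col11a1 23.5-fold, Col1a1 4.27-fold, Col1a2 3.18-fold, Col3a1 2.90-fold, Col5a2 2.60-fold and Col5a1 2.34-fold. Col5a3 was 1.68-fold higher and did not reach the limit. Of all tested genes, 30% were at least 2-fold higher and 3.99% at least 2-fold lower, and the median log2 ratio was 1.53 over the 7 genes against 0.50 over all genes. With median-of-ratios scaling 4 of the 7 genes kept an at least 2-fold difference (Col1a1, Col1a2, Col3a1 and Col11a1), with Col3a1 at the limit (log2 ratio 1.0), against 14% of all genes. These libraries belong to the different barcode sets described above.

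Cartilage markers moved with Col11a1. At d5 post-fracture 190 cells (13.2% of thinned cells) carried at least 3 chondrocyte markers, against 1 cell at d3 post-fracture and 0 at d0, and 7 of the 8 listed markers (Col2a1, Acan, Fgfr3, Matn1, Matn3, Col9a1 and Cnmd) were measured. These 190 cells held 55.3% of the Col11a1 UMIs of their library, 11.2% of its Col1a1 UMIs and 1.84% of its Col5a3 UMIs. Without them the log2 ratio of d5 to d3 post-fracture was 3.67 for Col11a1, 2.20 for Col1a1 and 1.0 for Col5a3. Among FAP/MP-marker cells, some of which may also pass the cartilage list, it was 3.70 for Col11a1 and 2.06 for Col1a1. The higher Col11a1 level was thus also counted in cells that did not pass the cartilage list. Some of these may carry fewer cartilage markers, and no free RNA value is given for d5 post-fracture.

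Polytrauma was next set beside fracture on the same day, within a barcode set. At d3 all 7 genes were lower post-polytrauma than post-fracture, by a log2 ratio of -0.90 for Col1a1, -0.66 for Col1a2, -0.57 for Col3a1, -0.78 for Col5a1, -0.56 for Col5a2, -0.32 for Col5a3 and -1.39 for Col11a1. Only Col11a1 passed the 2-fold limit, 2.62-fold lower (interval of the log2 ratio -1.47 to -1.30). Of all tested genes, 1.25% were at least 2-fold higher and 1.1% at least 2-fold lower, with a median log2 ratio of -0.03 over them. The median over the 7 genes was -0.66. Other genes differed too: Acta2 was lower (252 against 774 CPM), and Tyrobp, a hematopoietic marker, was at 14.3 against 2.48 CPM. Cells with at least 3 hematopoietic markers made 1.24% of thinned cells at d3 post-polytrauma (76 cells) and 0.317% at d3 post-fracture (17 cells), and with such cells left out the ratio was still -0.90 for Col1a1 and -1.38 for Col11a1. Among FAP/MP-marker cells the Col1a1 ratio was -0.94 and the Col11a1 ratio -1.40.

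At d5 the difference between injuries was uneven across the family. Col11a1 was 5.07-fold and Col1a1 2.29-fold lower post-polytrauma than post-fracture, and these 2 genes passed the limit. Col3a1 (log2 ratio -0.86) and Col1a2 (-0.62) were lower by less than 2-fold. Col5a1 (-0.14) and Col5a2 (-0.28) lay close to level, and Col5a3 was higher post-polytrauma (0.63, interval 0.60 to 0.66). Of all tested genes, 1.05% were at least 2-fold higher and 5.93% at least 2-fold lower, with a median log2 ratio of -0.01. Chondrocyte-marker cells made 13.2% of the d5 post-fracture cells and 0.773% of the d5 post-polytrauma cells. Without them Col11a1 remained lower (log2 ratio -1.62), Col1a1 was at -1.30, Col3a1 passed the limit at -1.02, and Col5a3 was at 0.39. Among FAP/MP-marker cells Col3a1 also passed the limit (-1.16).

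The last comparison followed polytrauma from d3 to d5, where all 7 genes were at least 2-fold higher at d5. Col11a1 was 12.1-fold, Col5a1 3.63-fold, Col1a1 3.48-fold, Col1a2 3.27-fold, Col5a3 3.24-fold, Col5a2 3.16-fold and Col3a1 2.37-fold higher. The share of all tested genes at least 2-fold higher was 22.3%, and 2.96% were at least 2-fold lower. The median log2 ratio was 1.71 over the 7 genes and 0.42 over all genes. With median-of-ratios scaling 6 genes passed (not Col3a1, at 0.77), against 10.1% of all genes. As after fracture, d3 and d5 differed in barcode set. The comparisons share libraries, so their values are not independent of each other.

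**Figure D2:**
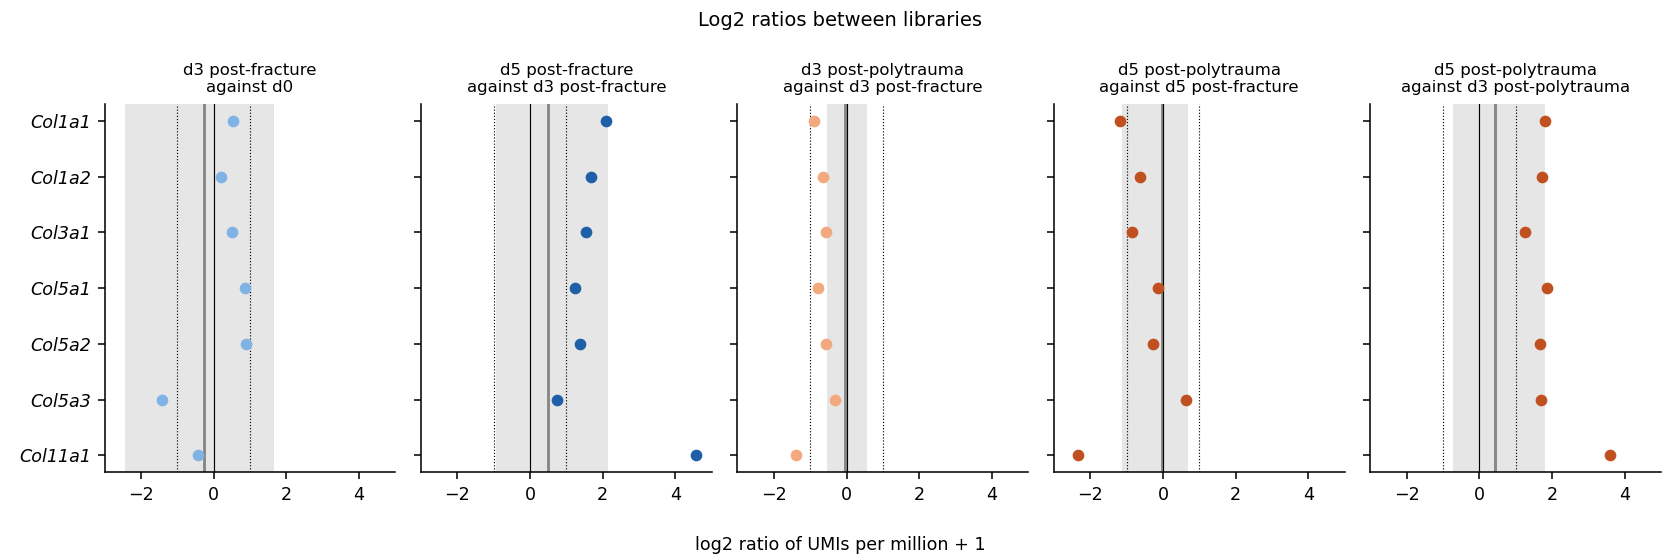
Log2 ratio of CPM + 1 for each gene in the 5 comparisons between libraries, with 95% counting intervals smaller than most points; the grey band spans the 5th to 95th percentile of all 9388 tested genes, the grey line is their median, and dotted lines mark 2-fold. At d3 all 7 genes lie below 0 for polytrauma against fracture, and Col11a1 is farthest from 0 in each comparison except d3 post-fracture against d0.

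Under the deposited labels the 2 exchanged libraries trade places, and the same values answer other questions. Polytrauma against fracture at d3 would then have 6 of the 7 genes at least 2-fold higher, at 30% of all genes, and polytrauma against fracture at d5 would have all 7 higher, at 22.3%. From d3 to d5, Col11a1 would be at least 2-fold lower after fracture, at 1.1% of all genes, and Col1a1 and Col11a1 after polytrauma, at 5.93%. The comparison of d3 post-fracture with d0 does not involve these libraries.

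Ratios of chains within a library do not depend on the scaling between libraries, but deep cells weigh more in them, so they are also given with each cell thinned to 2000 UMIs where this moved them. Type I collagen is a heterotrimer with more Col1a1 than Col1a2 product, and the ratio of Col1a1 to Col1a2 UMIs was 0.885 at d0, 1.10 at d3 post-fracture, 0.934 at d3 post-polytrauma, 1.48 at d5 post-fracture and 0.995 at d5 post-polytrauma. Thinned, it was 0.862, 1.13, 0.968, 1.62 and 1.09 in the same order. It was above 1 in both post-fracture libraries and below 1 at d0 and d3 post-polytrauma either way, while at d5 post-polytrauma its side of 1 depended on the setting (1.01 without the cells of highest doublet score). The ratio of Col3a1 to Col1a1 was highest at d3 post-polytrauma (1.05), at 0.849 at d0 and 0.836 at d3 post-fracture, and lowest at d5 (0.567 post-fracture and 0.717 post-polytrauma). Thinned, the d0 ratio was 0.998 and that of d3 post-fracture 0.852, and d3 post-polytrauma was still highest (1.10). The ratio of Col5a1 to Col5a2 varied least, from 0.587 to 0.692 (thinned, 0.553 to 0.682).

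The minor chains shifted more. Col5a3 UMIs exceeded Col5a1 UMIs at d0 (ratio 1.40, exact 95% interval 1.35 to 1.46), while after injury the ratio was 0.205 to 0.391. Thinned, it was 1.45 at d0 and 0.226 to 0.377 after injury. The ratio of Col11a1 to Col5a1 was 0.201 at d0, 0.0812 at d3 post-fracture, 0.0510 at d3 post-polytrauma, 0.835 at d5 post-fracture and 0.181 at d5 post-polytrauma. Thinned, it was 0.184, 0.0833, 0.0522, 0.774 and 0.186 in the same order, so d0 and d5 post-polytrauma were close to level. The ratio of Col5a1 to Col1a1 was lowest at d5 post-fracture (0.0482) and highest at d5 post-polytrauma (0.0999). Thinned, these were 0.0447 and 0.0921. The thinned interval at d5 post-polytrauma (0.0909 to 0.0933) overlapped that at d3 post-polytrauma (0.0856 to 0.0916).

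**Figure D3:**
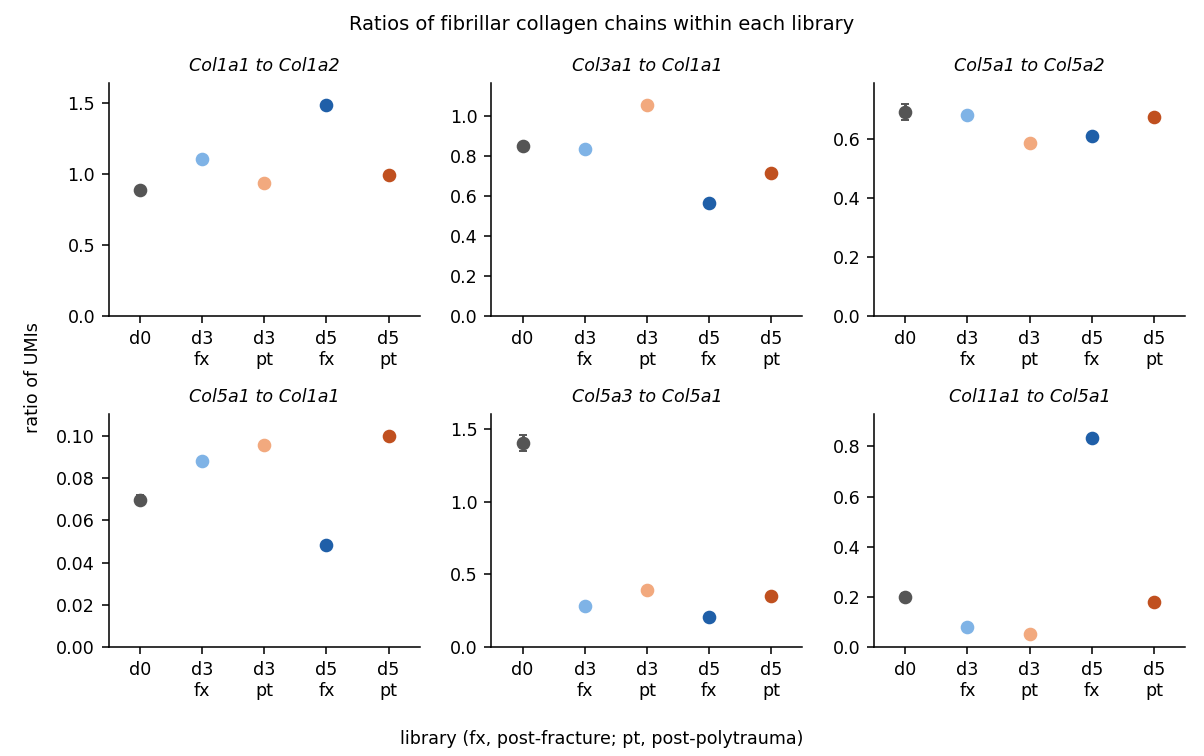
Ratio of UMIs of pairs of chains within each library (linear axes from 0; points with exact binomial 95% intervals, mostly smaller than the points; fx, post-fracture; pt, post-polytrauma). Col5a3 to Col5a1 is 1.40 at d0 and below 0.4 after injury, and Col11a1 to Col5a1 stands out at d5 post-fracture (0.835).

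The share of cells with a UMI was compared in cells thinned to 2000 UMIs each, which left out 744 cells at d0 and 30 to 424 in the other libraries. At least 1 Col1a1 UMI was found in 79.6% of cells at d0, 98.4% at d3 post-fracture, 91.7% at d3 post-polytrauma, 99.2% at d5 post-fracture and 99.7% at d5 post-polytrauma. Cells without a UMI of any of the 7 genes made 6.92% at d0, 0.336% at d3 post-fracture, 1.11% at d3 post-polytrauma, 0.278% at d5 post-fracture and 0.0347% at d5 post-polytrauma. Col5a1 was found in 33.8% of cells at d0 and 82.1% at d5 post-polytrauma, whereas Col5a3 was found in 40.6% at d0, 19.9% and 18.3% at d3 post-fracture and post-polytrauma, and 25% and 40.3% at d5. Col11a1 was found in 5.71%, 6.75% and 2.53% of cells at d0, d3 post-fracture and d3 post-polytrauma, and in 54.0% and 24.1% at d5 post-fracture and post-polytrauma. Unthinned shares of Col11a1 were 7.41%, 27.1%, 10.7%, 84.1% and 58.8% in the order d0, d3 post-fracture, d3 post-polytrauma, d5 post-fracture and d5 post-polytrauma.

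Free RNA in droplets can add to these shares, and hematopoietic-marker cells, which should lack these genes, were used to gauge it. Whether some of these cells are doublets with collagen-expressing cells was not tested, so their values may hold more than free RNA. At d3 post-polytrauma 25% of the 76 hematopoietic-marker cells had a Col1a1 UMI after thinning and 0 had a Col11a1 UMI. This allows a share of up to about 3.95%, with 3 counts taken as the upper limit of 0. That limit is approximate and differs from the exact interval used for the other shares. The 76 cells are too few to tell whether the 2.53% of all cells with Col11a1 in that library exceeds background, and their median depth before thinning was 4090.5 UMIs against 15688 in all cells. At d3 post-fracture (17 cells) and d5 post-polytrauma (21 cells) the Col1a1 shares were 58.8% and 66.7% and the Col5a3 shares 11.8% and 4.76%. Col11a1 had a UMI in 4.76% of these cells at d5 post-polytrauma, against 24.1% of all cells. These groups of 17 and 21 cells are smaller still, so their shares are only a rough gauge of background.

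**Figure D4:**
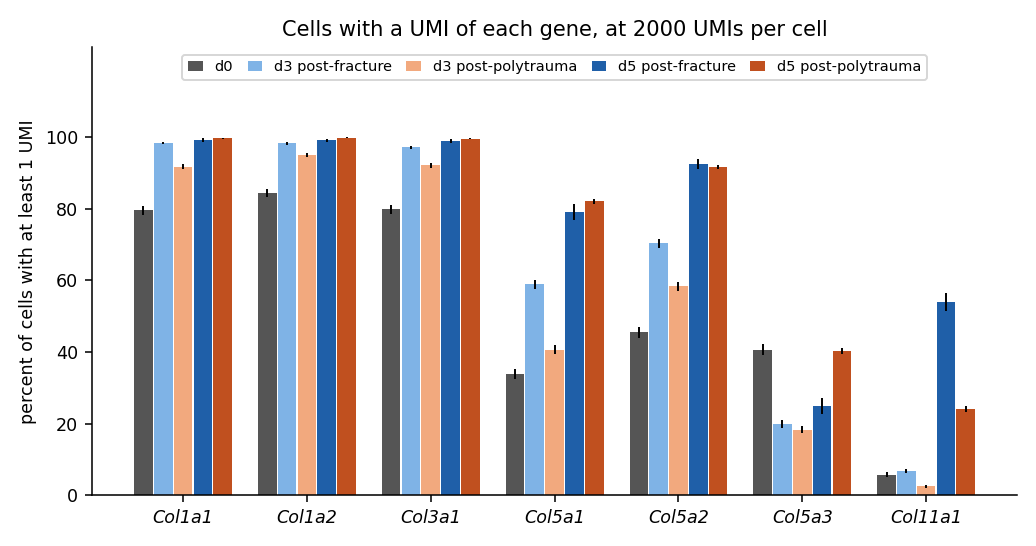
Percent of cells with at least 1 UMI of each gene after thinning each cell to 2000 UMIs, by library (bars, with exact 95% binomial intervals). Type I and III genes are in 79.6% or more of the cells of every library, and Col11a1 is in 54.0% of cells at d5 post-fracture and 2.53% at d3 post-polytrauma.

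The cells with the highest collagen share held a larger part of the collagen UMIs at d0 than after injury. These UMIs were not thinned, so deep cells weigh more in them, and cells were ranked by share and not by UMIs. Concentration in few cells thus cannot be told apart from the depth of the high-share cells. The tenth of cells with the highest collagen share held 44.5% of the UMIs of the 7 genes at d0 and 10.8% to 18.0% in the other libraries. The median cell had 0.772% of its UMIs in these genes at d0, 1.53% at d3 post-fracture, 0.902% at d3 post-polytrauma, 5.29% at d5 post-fracture and 3.1% at d5 post-polytrauma. The 95th percentile was 11% at d5 post-fracture, 2.87% at d0 and 3.09% at d3 post-polytrauma. By this share per cell, d0 and d3 post-polytrauma lay close in both median and 95th percentile.

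Cells were next grouped by lists of markers, with a cell admitted to a list when it had UMIs of at least 2 (FAP/MP, tenocyte, osteoblast, myogenic) or at least 3 (other lists) of its genes after thinning. These groups are sets of cells with given markers and not clusters, and 1.67% to 6.35% of cells passed more than 1 list. FAP/MP-marker cells (Prrx1, Cxcl12, Pdgfra, Ly6a, Cd34) were the most numerous, at 37.9% to 64.9% of cells. Their share of UMIs in the 7 genes was 1.05% at d0, 1.82% at d3 post-fracture, 1.08% at d3 post-polytrauma, 6.43% at d5 post-fracture and 3.17% at d5 post-polytrauma, which is the order seen in whole libraries for the injured samples. At d0 they had more Col3a1 (4064 CPM) than Col1a1 (2269 CPM) and held 77.0% of the Col3a1 UMIs and 76.0% of the Col5a3 UMIs of the library.

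Tenocyte-marker cells of uninjured muscle had a composition of their own. Their Col1a1 level was 21755 CPM and their Col1a2 level 21744 CPM, against 820 CPM for Col3a1, so the ratio of Col3a1 to Col1a1 was 0.0377 against 1.79 in FAP/MP-marker cells. Their ratio of Col11a1 to Col5a1 was 4.71 against 0.0443. After injury the cells with these markers (27 to 286 per library) had a Col3a1 to Col1a1 ratio of 0.479 to 0.706, and at d5 post-fracture they reached 13877 CPM of Col3a1. Kera, which encodes a tendon and cornea proteoglycan, was at 196 CPM at d0 and 4.40 to 7.44 CPM after injury. Scx was lower than Kera in both d3 libraries (2.33 against 6.00 CPM post-fracture, 0.649 against 4.66 CPM post-polytrauma). Which of the listed markers admitted these cells was not examined.

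Pericyte-marker cells (Cspg4, Des, Mylk, Rgs5, Notch3, Higd1b) had the lowest collagen share at d0, 0.101% of UMIs in 269 cells. In the 57 such cells at d5 post-polytrauma it was 1.73%, and in 21 to 58 cells of the other injured libraries 0.417% to 0.794%. Hematopoietic-marker cells of the same libraries, used to gauge free RNA, had 0.899% at d3 post-fracture, 0.346% at d3 post-polytrauma and 0.829% at d5 post-polytrauma, and the values of pericyte-marker cells at d3 are not read as expression. Col5a3 reached 498 and 573 CPM in pericyte-marker cells at d5 post-fracture and post-polytrauma, above its level in FAP/MP-marker cells of those libraries (250 and 336 CPM) and above the 70.1 CPM of hematopoietic-marker cells at d5 post-polytrauma.

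Chondrocyte-marker cells had Col11a1 at 2884 CPM (190 cells, d5 post-fracture) and 2309 CPM (89 cells, d5 post-polytrauma). Their Col11a1 to Col5a1 ratios were 5.37 and 7.16, and their Col3a1 to Col1a1 ratios 0.343 and 0.505, lower than in FAP/MP-marker cells of the same libraries (0.715 and 0.770). Col5a3 was at 23.6 and 32.0 CPM. Dividing cells, marked by genes such as Top2a and Cdk1, had 1.38% of UMIs in the 7 genes at d3 post-fracture (421 cells), 0.80% at d3 post-polytrauma (377), 3.96% at d5 post-fracture (104) and 2.61% at d5 post-polytrauma (1398), each below the level of its whole library. A further 21 cells at d0 carried osteoblast markers and had 5.00% of their UMIs in these genes.

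**Figure D5:**
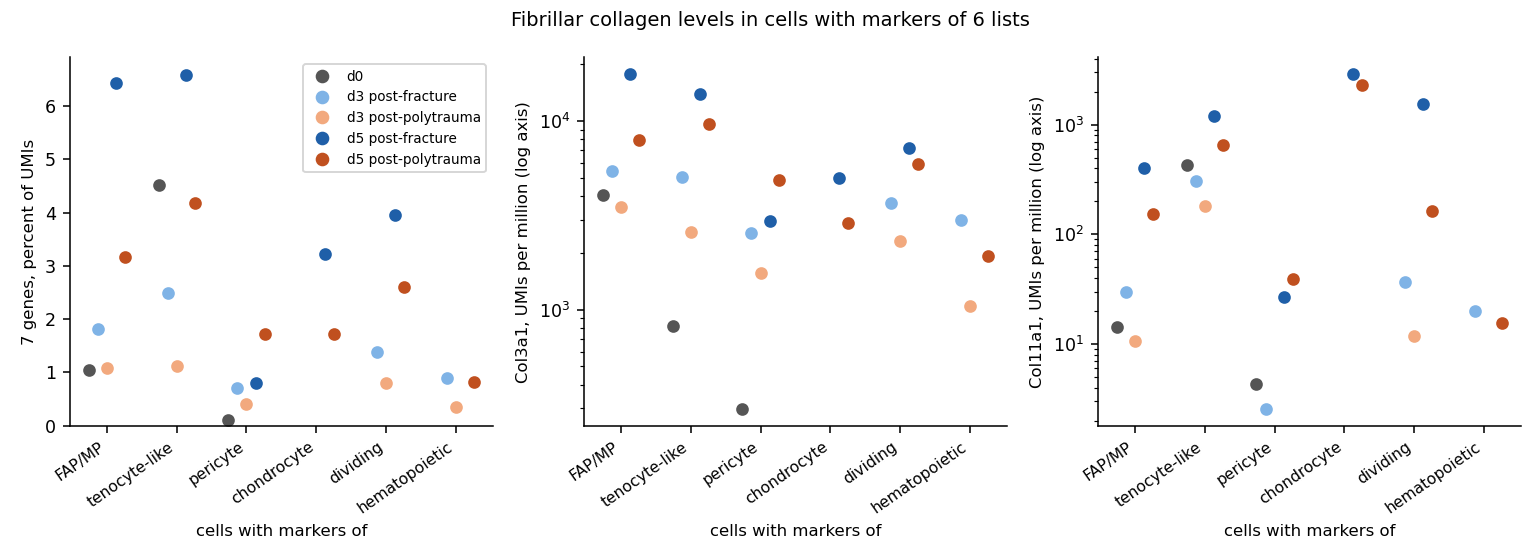
Levels in cells with markers of 6 lists, by library: percent of UMIs in the 7 genes (left, linear axis), Col3a1 (middle) and Col11a1 (right) in CPM on log axes; groups of fewer than 15 cells and levels of 0 (Col11a1 in pericyte- and hematopoietic-marker cells at d3 post-polytrauma) are not drawn. Tenocyte-marker cells at d0 combine a high collagen share (4.52%) with low Col3a1 (820 CPM), and Col11a1 is highest in chondrocyte-marker cells.

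Across single cells of a library the major chains went together and the minor chains less so. Pearson's r of log thinned counts between Col1a1 and Col1a2 was 0.71 to 0.81 in the 5 libraries (1438 to 11517 cells each), and that between Col1a1 and Col3a1 was 0.35 at d0 and 0.62 to 0.70 after injury. Col5a1 and Col5a2, which share trimers, had r of 0.22 to 0.31. For Col5a3 and Col11a1 r was -0.12 at d0, -0.02 in both d3 libraries, -0.29 at d5 post-fracture and -0.10 at d5 post-polytrauma. Col11a1 was related to Col1a1 at d0 (r = 0.44) but not to Col3a1 (-0.10). Sparse counts lower such values, and at 5000 UMIs per cell the r of Col1a1 with Col1a2 was 0.79 to 0.91. These values are descriptions, since cells of a library share its depth and free RNA.

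Genes with the pattern most like the 7 genes were ranked by the mean r with their summed counts over the 5 libraries, among 1448 other genes found in at least 10% of cells of each library. Col1a1, Col1a2 and Col3a1 made most of the summed counts in every library, so the ranking mainly reflects those genes. Sparc, a collagen-binding matricellular protein, came first (mean r 0.66, from 0.58 to 0.77), followed by Fn1 (0.45, fibronectin), Bgn (0.43, the proteoglycan biglycan), Dcn (0.41, decorin) and Fstl1 (0.40). Mmp2 (0.36, a gelatinase), Serpinf1 (0.35), Col6a1 (0.35, a chain of type VI collagen), Aebp1 (0.34) and Mfap5 (0.34) completed the 10. Their levels between libraries were not alike: Dcn was at 12960 CPM at d0 and 1169 to 2910 CPM after injury, while Fn1 was highest at d5 post-fracture (3225 CPM).

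Of 16 genes for enzymes and chaperones that hydroxylate and fold procollagen, 9 were at least 2-fold higher and 1 (P3h2) lower at d3 post-fracture than at d0, against 11.5% and 23.2% of all tested genes, with a median log2 ratio of 1.12 against -0.25 for all genes. P4ha3, a subunit of prolyl hydroxylase, was at 5.39 CPM at d0 and 44.1 CPM at d3 post-fracture. P3h1, a prolyl hydroxylase, was at 17.4 and 80.7 CPM, and Fkbp10, a collagen chaperone of the endoplasmic reticulum, at 71.9 and 291 CPM. Serpinh1, the collagen chaperone HSP47, was at 1747 and 3200 CPM (log2 ratio 0.87). From d3 to d5, 7 of the 16 were at least 2-fold higher after fracture, against 30% of all genes, and 7 after polytrauma, against 22.3%, and 0 were lower. With median-of-ratios scaling these counts were 4 higher and 1 lower after fracture, against 14% of all genes higher, and 5 higher after polytrauma, against 10.1%. P3h3 and P3h4 had log2 ratios of 2.22 and 2.00 after fracture. Between the injuries on the same day, 0 of the 16 differed by 2-fold at d3, and only P3h2 (lower post-polytrauma, -1.07) did at d5. Of all tested genes, 1.25% were higher and 1.1% lower at d3, and 1.05% higher and 5.93% lower at d5, so these counts lie near the background. With median-of-ratios scaling 0 of the 16 differed at d5.

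Among cross-linking genes, Lox, the lysyl oxidase that starts cross-links between fibril molecules, was at 109 CPM at d0 and 588, 471, 604 and 841 CPM in the d3 post-fracture, d3 post-polytrauma, d5 post-fracture and d5 post-polytrauma libraries. Of 4 tested cross-linking genes 2, Lox and Loxl3 (log2 ratio 2.05), were at least 2-fold higher at d3 post-fracture than at d0. From d3 to d5 after fracture 0 were. Of all tested genes, 11.5% and 30% were higher in these comparisons. With median-of-ratios scaling both counts were the same, against 17% and 14%. Of propeptide cleavage genes, 0 of 5 tested were at least 2-fold higher and 2, Adamts2 (-1.07) and Pcolce2 (-1.54), were lower at d3 post-fracture. These counts stand beside 11.5% and 23.2% of all tested genes. With median-of-ratios scaling 0 were higher and 1 was lower, against 17% and 16.8%. Adamts2, the procollagen N-proteinase, was higher again at d5 (log2 ratio 1.56 after fracture and 1.41 after polytrauma).

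Of 12 regulators of fibril assembly, 5 were at least 2-fold lower at d3 post-fracture than at d0 (23.2% of all genes), 2 were higher (11.5%) and 5 did not pass the limit. Those lower were Dcn (-3.47), Fmod (-3.51, fibromodulin), Lum (-2.20, lumican), Tnxb (-5.45, tenascin X) and Comp (-2.09). Postn, which encodes periostin, was among the 2 that were higher (2.28), at 219 CPM at d0, 1069 at d3 post-fracture, 391 at d3 post-polytrauma, 4039 at d5 post-fracture and 2587 at d5 post-polytrauma. At d5, 8 of 12 were at least 2-fold higher than at d3 after fracture, against 30% of all genes, and 7 were higher with 1 lower after polytrauma, against 22.3% higher. With median-of-ratios scaling 6 of 12 were higher after fracture and 4 of 12 after polytrauma, against 14% and 10.1% of all genes. Polytrauma had 4 of 12 lower than fracture at d3 (Fmod, Aspn, Postn and Comp), against 1.1% of all genes, and 5 of 12 at d5 (Dcn, Fmod, Lum, Tnxb and Comp), against 5.93%.

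Of 6 tested collagen receptors 3, Itga1 (-2.55), Itga11 (-1.34) and Ddr2 (-1.72), were at least 2-fold lower at d3 post-fracture than at d0. Of all tested genes 23.2% were lower there, and the count was the same with median-of-ratios scaling, against 16.8%. At d5, 5 of 6 receptors were at least 2-fold higher than at d3 after each injury. Of all genes 30% were higher after fracture and 22.3% after polytrauma. With median-of-ratios scaling 2 of 6 receptors were higher after each injury, with 14% and 10.1% of all genes. Of 3 tested collagenases and gelatinases, 0 were past 2-fold at d3 post-fracture against d0 (1 higher with median-of-ratios scaling, against 17% of all genes). From d3 to d5, 3 were at least 2-fold higher after fracture and 2 after polytrauma, against 30% and 22.3% of all genes. With median-of-ratios scaling these counts were 2 and 1, against 14% and 10.1%. Mmp14, a membrane protease that cleaves fibrillar collagen, was at 68.9 CPM at d0, 121 at d3 post-fracture, 105 at d3 post-polytrauma, 525 at d5 post-fracture and 335 at d5 post-polytrauma. The collagenase Mmp13 was at 102 CPM at d5 post-fracture and at 6.99 to 18.1 CPM in the other libraries.

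The remaining lists set the cell context. Among 8 genes tied to collagen transcription and translation, 5 were at least 2-fold lower at d3 post-fracture than at d0 (4 with median-of-ratios scaling), against 23.2% of all tested genes (16.8%), among them Larp6 (-2.38), which binds collagen mRNA, and Scx (-1.79), a tendon transcription factor; Runx2 was higher (2.11). Scx was at 10.5 CPM at d0, 2.33 and 0.649 at d3, and 45.7 and 35.6 at d5 post-fracture and post-polytrauma. Of the cartilage fibrillar collagens, Col2a1 was at 7.80 CPM at d0, 0.870 at d3 post-fracture, 0.107 at d3 post-polytrauma, 1525 at d5 post-fracture and 78.1 at d5 post-polytrauma. Col11a2 was at 23.5, 1.07, 0.804, 163 and 9.17 CPM in that order. All 5 contractile genes were at least 2-fold lower at d3 post-fracture than at d0, against 23.2% of all tested genes. All 5 were at least 2-fold lower again at d3 post-polytrauma than at d3 post-fracture, against 1.1% of all tested genes. Acta2, the smooth muscle actin of pericytes and myofibroblasts, was at 2411 CPM at d0, 774 and 252 CPM at d3 post-fracture and post-polytrauma, and 484 and 1224 CPM at d5. Acta2 was thus 1.34 higher on the log2 scale post-polytrauma than post-fracture at d5, where Col1a1 was lower. With median-of-ratios scaling, 11 of 16 modifying and folding genes were higher at d3 post-fracture than at d0, against 17% of all tested genes. On the same scaling 4 of 5 contractile genes were lower, against 16.8%.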

How the data were processed

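Libraries were made by the authors with a 10x Genomics 3' kit (v2 chemistry per the labels). The deposited matrices hold UMI counts per gene and barcode, not normalized, made by the authors with Cell Ranger (3.1.0 in the file headers) against mm10; their notes name Seurat 3.1.2. Barcodes with 350 to 8000 genes, under 20% mitochondrial UMIs and at least 1000 UMIs were kept (29831 of 34439; 17437190 to 202233564 UMIs per library). Counts were summed per library and scaled to CPM; log2 ratios used a pseudocount of 1 CPM, and a conditional binomial 95% interval put on that scale. The 2-fold limit was counted over genes with a mean of at least 5 CPM. Doublets were kept in the main values: Scrublet (scanpy 1.11.5) called 0 to 6 cells per library, so its automatic calls did not work here. An alternative left out the 17 to 1141 cells per library with its highest scores, which may not be doublets. The ratio and interval code was tested on simulated data. The members, gene lists, marker lists and limits were chosen with earlier results of these data known. Named genes were the 7 members, the 10 genes most like them, and up to 4 of each list with the largest ratios, with others named to complete a count or give context after their values were seen. One listed marker, Snorc, was not analysed here.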

Additional observations from a re-analysis of the deposited data

Results flagged for a closer look

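Col5a3 differed in direction between injuries by day: the log2 ratio of polytrauma to fracture was -0.32 at d3 (interval -0.36 to -0.29) and 0.63 at d5 (interval 0.60 to 0.66). With 1 library per condition the difference between the days was not tested, and day coincides with the barcode set. No alternative on the same pairs of libraries gave the opposite sign, but the size moved. At d3 the ratio was -0.20 with cells weighted equally and -0.02 as the median over cells, which is close to level. At d5 it was 0.39 without chondrocyte-marker cells, 0.43 among FAP/MP-marker cells and 1.81 as the median over cells. Under the deposited labels these pairs of libraries would stand for other conditions.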

How the results depend on the processing

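No paired analysis was possible because each condition has 1 library. Of 35 member ratios, 32 kept their sign under all alternatives on the same libraries, and none of the 17 ratios past 2-fold changed sign. The exceptions were Col11a1 at d3 post-fracture against d0 (-0.43, up to 1.01 among FAP/MP-marker cells), Col5a3 at d5 against d3 post-fracture (0.75, -0.22 as the median over cells) and Col5a1 at d5 post-polytrauma against post-fracture (-0.14, 0.01 with cells weighted equally). The number of genes at least 2-fold higher at d3 post-fracture than at d0 was 0, and was 1 without tenocyte-marker cells or with cells weighted equally, 2 among FAP/MP-marker cells, with median-of-ratios scaling or at a 1.5-fold limit, and 3 as the median over cells (detected members only). At 1.5-fold, polytrauma against fracture had 4 genes lower at d3, and 4 lower and 1 higher at d5, where the median over cells gave 1 higher. Apart from median-of-ratios scaling, no share of all genes is given under these settings, so these counts have no background beside them. The filters on chondrocyte-, tenocyte- and FAP/MP-marker cells were chosen after seeing the data.

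Under the deposited labels, d5 against d3 post-fracture had 0 higher and 1 lower (Col1a1 -0.90, Col1a2 -0.66, Col3a1 -0.57, Col5a1 -0.78, Col5a2 -0.56, Col5a3 -0.32, Col11a1 -1.39). Polytrauma against fracture had 6 higher and 0 lower at d3 (Col11a1 4.55) and 7 higher and 0 lower at d5 (Col1a1 1.80, Col11a1 3.60). The d5 against d3 post-polytrauma comparison had 0 higher and 2 lower by 2-fold (Col1a1 -1.19, Col1a2 -0.62, Col3a1 -0.86, Col5a1 -0.14, Col5a2 -0.28, Col11a1 -2.34). Col5a3 went the other way (0.63). Shares of cells moved with thinning depth in 104 of 105 recomputed values, while chain ratios stayed within their counting interval in 118 of 150. Most of these 150 values changed only which cells were counted. Thinning to 2000 UMIs moved Col1a1 to Col1a2 and Col3a1 to Col1a1 outside their intervals in every library. At d5 post-fracture, Col1a1 to Col1a2 went from 1.48 to 1.62.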
